A study of Mus musculus with 2 samples.

Results

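Deep cells rich in the peptide transcripts Gal and Cck were selected on their measured Gal, Cck, Otof and total UMIs from 2 single-cell libraries of adult mouse cochlear sensory epithelium. A cell was gated in when it held at least 5000 UMIs (unique transcript molecules), at least 30 Gal and 10 Cck UMIs per 10000 UMIs, and fewer than 3 UMIs of the hair cell synapse gene Otof. The gate took 97 cells of the cocktail library and 90 of the vehicle library, 187 of 2913 kept cells and of 1983 kept cells with at least 5000 UMIs, called deep cells here. Explants were whole cochleae of wild-type C57BL/6J mice aged 4 to 6 weeks. For 4 days one group received VPA (1.5 mM), LiCl (8 mM), FSK (20 µM), siFIR and siMxi1 (0.02 µM each), named the cocktail, and the other group received sterile water with 0.1% DMSO, named the vehicle. Both groups were then given ad.Atoh1, an adenovirus that overexpresses Atoh1, for 2 weeks, so no library lacks the virus. Each library pooled 5 cultures and is the 1 library of its condition. Cells were not assigned to cultures, so differences between the libraries lack a replicate check, and condition and library cannot be told apart. No p-value was computed from cells. Wherever values come as a pair, the cocktail library is given before the vehicle library.

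Atoh1 is the basic helix-loop-helix factor that starts hair cell differentiation, and Hes6 is one of its early targets in the inner ear. Galanin (Gal) and cholecystokinin (Cck) are secreted neuropeptides known mainly from neurons and endocrine cells. Hsd11b2 encodes the enzyme that inactivates glucocorticoids in mineralocorticoid target epithelia, and Krt23 encodes a type I keratin. In GRCm38 Gal (ENSMUSG00000024907) lies on chromosome 19 from 3409915 to 3414544 and Cck (ENSMUSG00000032532) on chromosome 9 from 121489824 to 121495694. Hes6 (ENSMUSG00000067071) lies on chromosome 1 from 91411483 to 91414038 and Krt23 (ENSMUSG00000006777) on chromosome 11 from 99477974 to 99493137, these 4 on the minus strand. Hsd11b2 (ENSMUSG00000031891) lies on the plus strand of chromosome 8 from 105518755 to 105523988.

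The 250 bases upstream of the annotated start are shown for 4 genes that mark the gated cells, from cultures given Atoh1 and, in the cocktail library, the cAMP agent FSK and an siRNA against the Myc network gene Mxi1. Capitals mark matches, on either strand, of 4 motifs that were chosen after earlier results were known: the E boxes CAGCTG and CAGATG of the kind that Atoh1 and related factors bind, the E box CACGTG bound by Myc and its partners, and TGACGTCA, the cAMP response element.
Gal: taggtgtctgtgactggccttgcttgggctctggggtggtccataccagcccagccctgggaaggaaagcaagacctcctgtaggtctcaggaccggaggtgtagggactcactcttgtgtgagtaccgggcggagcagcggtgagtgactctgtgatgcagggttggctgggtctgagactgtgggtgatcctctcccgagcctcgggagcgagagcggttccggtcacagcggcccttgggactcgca
Cck: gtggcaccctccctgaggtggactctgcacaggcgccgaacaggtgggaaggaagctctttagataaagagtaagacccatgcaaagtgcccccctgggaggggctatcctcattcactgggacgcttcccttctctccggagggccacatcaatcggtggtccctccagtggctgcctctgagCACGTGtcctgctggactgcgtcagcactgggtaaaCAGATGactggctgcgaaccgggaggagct
Hes6: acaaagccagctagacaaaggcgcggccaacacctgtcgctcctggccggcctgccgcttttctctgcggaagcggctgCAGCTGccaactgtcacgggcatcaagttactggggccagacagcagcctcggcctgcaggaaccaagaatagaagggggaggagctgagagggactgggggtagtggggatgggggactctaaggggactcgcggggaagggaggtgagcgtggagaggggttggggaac
Krt23: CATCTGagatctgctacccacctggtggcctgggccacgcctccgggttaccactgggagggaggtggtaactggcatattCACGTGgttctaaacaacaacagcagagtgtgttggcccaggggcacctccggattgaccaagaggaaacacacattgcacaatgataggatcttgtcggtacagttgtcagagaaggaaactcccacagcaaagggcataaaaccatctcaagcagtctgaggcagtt
These windows, from RefSeq for GRCm38.p6, are chr19:3414545-3414794 for Gal, chr9:121495695-121495944 for Cck, chr1:91414039-91414288 for Hes6 and chr11:99493121-99493370 for Krt23, each written 5′ to 3′ on the minus strand. Positions count back from the start to the first base of a match. The Gal window held 0 of the 4 motifs. In the Cck window CACGTG began at -66 and CAGATG at -30, and in the Hes6 window CAGCTG began at -171. Another annotated Hes6 window, chr1:91413223-91413472, which is not printed, held CAGCTG at -150. The Krt23 window had CAGATG, read on the other strand as CATCTG, at -250 and CACGTG at -169. Among 32851 promoter windows of this length, 13.0% held CAGCTG, 14.4% CAGATG, 6.02% CACGTG and 1.55% TGACGTCA. Among 400 windows of the genes past 2-fold higher in gated cells than in other Epcam cells (defined below), the shares were 17.5%, 16.8%, 8.50% and 2.75%. Among 201 windows of the genes past 2-fold higher in gated cells with an Atoh1 UMI than in those without, they were 11.9%, 7.96%, 5.47% and 1.49%. A match is a description of these letters and not a binding site.

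The values that chose the cells are given as a description. Over gated cells Gal ranged from 30.9 to 1259 UMIs per 10000 around a median of 150 in the cocktail library, and from 30.1 to 867 around 105 in the vehicle library. Cck ranged from 10.3 to 404 around 50.1 and from 10.9 to 199 around 51.9. Summed over the gated cells, Gal stood at 19197 and 12390 CPM, UMIs per 1000000 UMIs of the group, and Cck at 5815 and 5524 CPM. Few cells lay beside the cuts: 3 cocktail and 6 vehicle cells held 30 to 35 Gal UMIs per 10000 within the gate, and 4 and 10 cells that passed its other limits held 25 to 30. For Cck 1 and 2 cells lay within 2 per 10000 above the cut and 5 and 5 within 2 below it. At the Otof limit, 7 and 2 gated cells held 2 Otof UMIs, and 4 and 2 cells with 3 were left out. Within 500 UMIs of the depth minimum, 3 and 0 cells were inside and 2 and 3 outside.

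**Figure D1:**
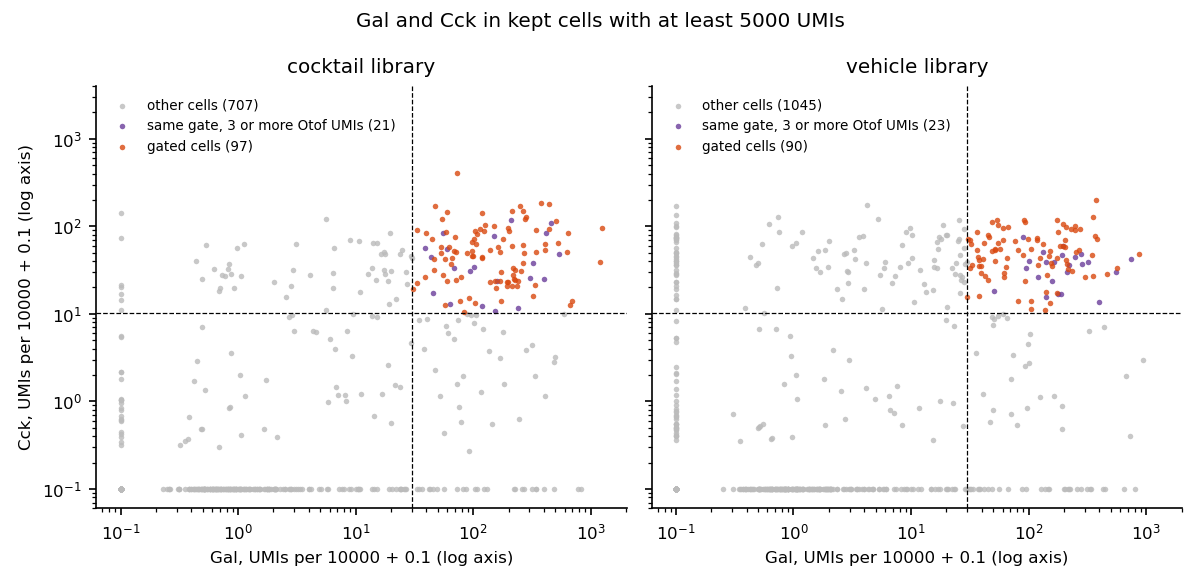
Gal (x axis) and Cck (y axis) in UMIs per 10000, with 0.1 added for the log axes, in each deep cell of the 2 libraries; dashed lines mark the cuts at 30 and 10. The 97 and 90 gated cells spread over more than 10-fold in both transcripts, and the cells of the same corner with 3 or more Otof UMIs (21 and 23) lie among them.

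Gated cells made up 11.8% of deep cocktail cells (Clopper-Pearson 95% interval 9.64 to 14.2) and 7.77% of deep vehicle cells (6.30 to 9.47). The share was higher in the cocktail library by 3.99 points (Newcombe interval 1.35 to 6.75). Of all kept cells the shares were 7.30% and 5.68%, and the interval of that difference, 1.62 points (-0.17 to 3.46), held 0. All intervals here and below are 95% and cover counting error only. Gated cells held a median of 21057 and 17612 UMIs, close to 20125.5 and 16968.5 in the other deep cells. The libraries shared 0 cell barcodes, and the doublet caller Scrublet called 0 cocktail and 2 vehicle cells, too few to show that it worked, none of them gated. A gene at 0 in the gated cells may have stood at up to 1.34 and 1.70 CPM, by a limit of 3 counts.

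The label calls the cells epithelial. Most held Epcam, and the 25 epithelial genes listed, Epcam among them, summed to 2404 and 2776 CPM. Deep cells chosen for having no Epcam UMI held 113 and 92.3 CPM. All other deep cells held 2600 and 2278 CPM, and those with at least 3 Epcam UMIs held 4912 and 5146 CPM. In gated cells several of the 25 genes were low, and the cells are called by their leading transcripts here. Epcam, the epithelial adhesion molecule, was found in 85.6% and 84.4% of gated cells, at 362 and 343 CPM. The other deep cells with at least 3 Epcam UMIs, 379 and 457 cells called other Epcam cells here, held 1263 and 1294 CPM, a level set by their own cut. Cdh1, the E-cadherin gene, stood at 118 and 112 CPM in gated cells and at 258 and 176 CPM in other Epcam cells. Markers of several other cell types were measured, and their part in the results below was not tested. The 10 fibroblast markers summed to 67.0 and 90.9 CPM in gated cells against 1155 and 1698 CPM in all other deep cells, with Col1a1 at 0 UMIs in both libraries. The 10 macrophage markers summed to 14.3 and 22.2 CPM, with Ptprc and C1qc at 0. The 10 osteoblast markers summed to 19.2 and 58.5 CPM against 3592 and 3726 CPM. The 10 Schwann or glia markers were not as far apart, at 298 and 409 CPM in gated cells and 539 and 827 CPM in the other deep cells. The 14 neuron markers summed to 317 and 177 CPM in gated cells, 198 and 203 CPM in other Epcam cells and 580 and 939.5 CPM in all other deep cells, with Elavl4 and Thy1 at 0 in gated cells. Tubb3, a neuronal tubulin gene, and Rbfox3, the gene of the neuronal protein NeuN, were past 2-fold higher in gated than in other Epcam cells. They were 2 of 9 neuron markers tested there, and 4 were lower. Of all genes tested in that comparison 3.49% were higher and 8.91% lower. Endothelial markers summed to 56.3 and 38.7 CPM against 42.6 and 111 CPM, mostly Pecam1 at 48.7 and 30.7 CPM, with Cldn5, Cdh5, Esam and Adgrl4 at 0.

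Hes6 and Krt23 marked the gated cells in different ways. Both were proposed as markers, with Hsd11b2, when results of these data were already known, so their levels describe the cells. Hes6 was found in 96.9% and 93.3% of gated cells. Its level was 577 CPM (Poisson interval 546 to 609) and 439 CPM (408 to 471) in gated cells, against 266 and 201 CPM in all other deep cells and 309 and 203 CPM in other Epcam cells. The log2 ratio to all other deep cells was 1.12 (1.03 to 1.21) and 1.13 (1.01 to 1.24), where 1 on the log2 scale is 2-fold. Per cell Hes6 ranged from 0 to 43.6 UMIs per 10000 in the cocktail library, and from 0 to 25.9 in the vehicle library. Against other Epcam cells Hes6 stood at 0.90 and 1.11, short of 2-fold in the cocktail library. Other deep cells without an Epcam UMI, of like median depth at 20190.5 and 16854.5 UMIs, also held Hes6, in 43.1% and 50.0% of cells.

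Krt23 was found in fewer gated cells but was far lower elsewhere. It was detected in 40.2% and 44.4% of gated cells, against 8.71% and 7.88% of other Epcam cells and 0.31% and 1.22% of deep cells without Epcam. Its level was 166 CPM (149 to 183) and 225 CPM (203 to 248) in gated cells and 18.6 and 26.9 CPM in other Epcam cells. The log2 ratio was 3.15 (2.88 to 3.43) and 3.06 (2.83 to 3.30). In the gated cell with most Krt23 it reached 18.2 and 26.7 UMIs per 10000, while the median gated cell held 0. Krt7, a type II keratin of simple epithelia, was similar in this, in 40.2% and 45.6% of gated cells. Krt7 was detected in 17 of 39 cocktail cells with Krt23 and 22 of 58 without, and in 18 of 40 and 23 of 50 vehicle cells.

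Hsd11b2 was not particular to the gated cells. It stood at 92.9 CPM (80.7 to 106) in gated cocktail cells and 91.6 CPM in other Epcam cells of that library, and at 106 (91.6 to 123) and 52.5 CPM in the vehicle library. The log2 ratios were 0.02 (-0.21 to 0.24) and 1.02 (0.76 to 1.27). One vehicle cell held 39.0% of the gated Hsd11b2 UMIs there. Deep cells without Epcam held 4.69 and 3.96 CPM of Hsd11b2.

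**Figure D2:**
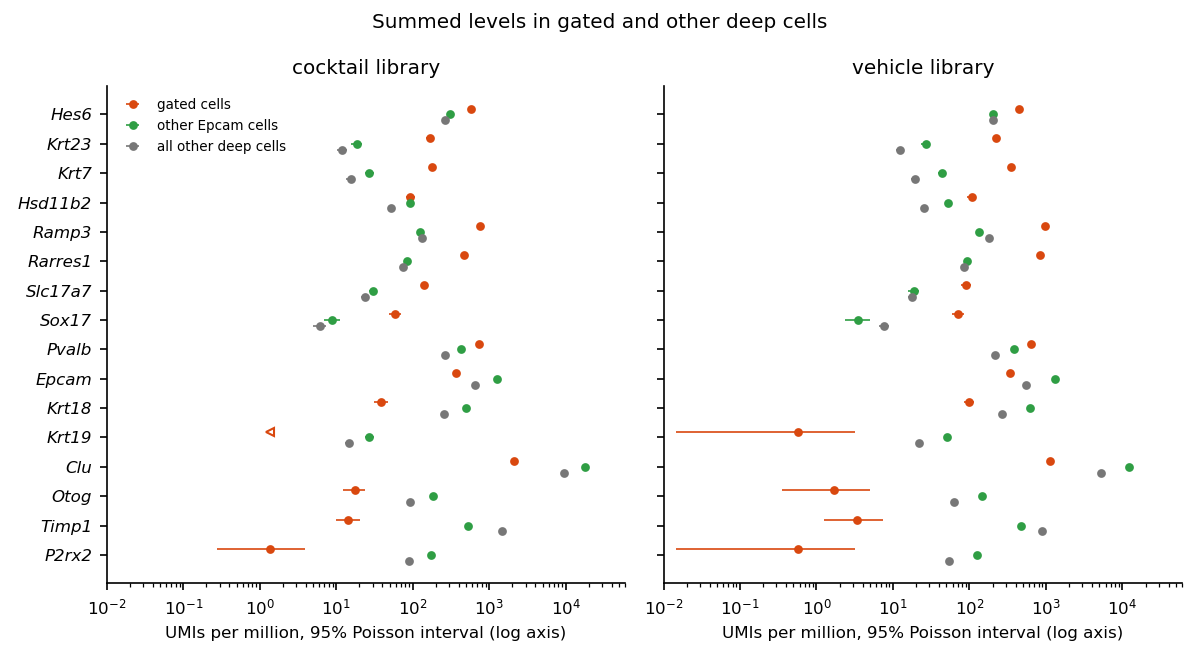
Summed level in CPM (log axis) with its 95% Poisson interval for 16 genes in gated cells, other Epcam cells and all other deep cells of each library; an open triangle marks the limit of 3 counts for a gene at 0 in the group. Krt23, Krt7, Ramp3, Rarres1 and Sox17 are higher in gated cells in both libraries, while Krt18, Clu, Otog, Timp1 and P2rx2 are lower, and Hsd11b2 coincides with other Epcam cells in the cocktail library.

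Against all other deep cells, 728 and 1068 in number, the gated cells carried more Krt23, Krt7, Sox17, Rarres1 and Ramp3 transcript and less of matrix genes such as Timp1 and Mgp. Of 15080 genes with at least 20 UMIs in the compared cells of each library, 560 (3.71%) were past 2-fold higher in both libraries and 1840 (12.2%) past 2-fold lower. The medians over all genes were -0.09 and -0.06 on the log2 scale. After Krt23 and Krt7 the rank by counting interval gave Sox17, a transcription factor of endoderm and endothelium, at 58.5 and 71.0 CPM against 6.06 and 7.66 CPM. Crisp1, which encodes a cysteine-rich secreted protein, followed at 199 and 187 CPM against 25.3 and 19.8 CPM. Rarres1, named for its response to retinoic acid, was found in 75.3% and 85.6% of gated cells, at 463 and 839 CPM, with log2 ratios of 2.63 and 3.30. Ramp3, a partner of calcitonin family receptors, was found in 89.7% and 84.4%, at 748 and 970 CPM against 133 and 178 CPM. Slc17a7, the vesicular glutamate transporter VGLUT1, was found in 71.1% and 57.8% of gated cells and 13.6% and 11.1% of the others. Cib3, a relative of the hair cell transduction protein Cib2, stood at 355 and 467 CPM against 77.5 and 67.3 CPM. The other genes that the rule named on the higher side were Sec14l4, Ndufaf6, Sntg1, Nfe2l3, Arrdc2, Ccdc88b and Kirrel2, with log2 ratios between 2.25 for Ccdc88b in the cocktail and 3.42 for Sec14l4 in the vehicle library.

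On the lower side stood genes of connective tissue and bone. Timp1, an inhibitor of matrix proteases, had 32 and 6 UMIs in gated cells, at 14.3 and 3.41 CPM against 1463 and 898 CPM. Mgp, Spp1, Mme, Lgals1 and Cp were lower by log2 ratios of -5.30 to -9.43. Mmp2, a gelatinase, had 1 UMI in the gated cells of each library, with log2 ratios of -7.58 (-12.89 to -5.10) and -7.39 (-12.69 to -4.91). Col1a2, a chain of type I collagen, had 21 and 0 UMIs, and 1 cell held 81.0% of the 21. All 10 fibroblast markers were past 2-fold lower, with medians of -4.89 and -2.38.

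Set against other Epcam cells alone, the gated cells stood out by Krt23, Rgs16, Ramp3, Krt7 and Cdkn1c and by low P2rx2, Clu and Krt18. Of 13309 genes tested, 464 (3.49%) were past 2-fold higher in both libraries and 1186 (8.91%) past 2-fold lower, with medians over all genes of -0.04 and -0.06. Rgs16, which speeds the shut-off of G protein signals, stood at 43.8 and 65.9 CPM against 5.40 and 7.35 CPM. Cdkn1c, the cyclin-dependent kinase inhibitor p57, stood at 782 and 1178 CPM against 176 and 135 CPM, in 42.3% and 44.4% of gated cells. Lxn, a carboxypeptidase inhibitor, was found in 93.8% of the cocktail cells, at 455 and 379 CPM against 98.5 and 77.9 CPM. Tnnt1, the slow muscle troponin T gene, stood at log2 ratios of 2.66 (2.29 to 3.04) and 2.90 (2.65 to 3.15). Ccdc155 and Vstm2b were also higher, Ccdc155 by 2.72 and 2.83 and Vstm2b by 2.43 and 3.10. P2rx2, an ATP-gated channel of cochlear epithelium, had 3 and 1 UMIs in gated cells and was in 50.1% and 46.6% of other Epcam cells, with log2 ratios of -7.00 (-9.28 to -5.45) and -7.79 (-13.10 to -5.31). Chil1, Pla2g7, Cpxm2, Fam107a and Ces1d were also among the named lower genes, at ratios between -4.13 and -7.27. Against cells of the same gate with 3 or more Otof UMIs, Krt23 was past 2-fold higher in both libraries. Rgs16, Ramp3, Krt7, Cdkn1c, Lxn and Tnnt1 were not.

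Most markers of interdental or inner sulcus cells, the epithelium beside the tectorial membrane, were lower in gated cells than in other Epcam cells. Of 14 tested markers, 0 were past 2-fold higher and 11 lower, with medians of -2.64 and -2.85, beside 3.49% and 8.91% of all genes tested. All 15 listed markers summed to 2385 and 1350 CPM in gated cells and 19081 and 13364 CPM in other Epcam cells. Clu, the secreted chaperone clusterin, stood at 2078 and 1140 CPM against 18073 and 12217 CPM. Otog, a tectorial membrane protein gene, stood at 17.4 and 1.70 CPM against 181 and 146 CPM. Of 27 ion transport genes 15 were lower, among them Gjb2, the connexin 26 gene, at 33.0 and 23.3 CPM against 139 and 115 CPM. Slc12a2, the basolateral sodium, potassium and chloride cotransporter, was the 1 higher gene of that list, at 316 and 318 CPM against 148 and 113 CPM. Of 38 supporting cell and prosensory genes 16 were lower and 4 higher, namely Cdh4, Fabp7, Prox1 and Sparcl1. Prox1, a transcription factor of supporting cells, was in 28.9% and 33.3% of gated cells against 11.3% and 11.2%, at log2 ratios of 1.41 (0.96 to 1.85) and 1.44 (1.02 to 1.85). One cell held 68.7% of the gated Sparcl1 UMIs in the cocktail library.

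Keratin and junction genes did not move together. Of 24 epithelial genes 9 were lower than in other Epcam cells, Krt18, Krt19, Cldn3, Cldn4, Cldn7 and Cldn9 among them. The 9 include Epcam, whose own cut chose the other Epcam cells. Cdh3, Cldn8 and Krt7 were higher. Over all genes tested 8.91% were lower and 3.49% higher. Krt18, a type I keratin of simple epithelia, stood at 38.4 and 98.3 CPM in gated cells against 490 and 613 CPM, while Krt8, its usual partner, stood at 210 and 332.5 CPM against 441 and 419 CPM. Krt19 had 0 and 1 UMIs in gated cells. Cdh3, the P-cadherin gene, stood at 50.9 and 73.3 CPM against 18.0 and 16.7 CPM. Cldn8, a claudin of tight epithelia, had log2 ratios of 1.15 (0.85 to 1.44) and 1.23 (0.87 to 1.58).

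Hair cell genes are not independent of the gate, which left out cells with 3 or more Otof UMIs. Those cells stayed among the other deep cells, and among the other Epcam cells where they held at least 3 Epcam UMIs. Against all other deep cells, Hes6, Insm1, Lhx3 and Neurod1 of 25 tested hair cell regulators were past 2-fold higher and Pou4f3 and Rbm24 lower. Over all genes tested against those cells 3.71% were higher and 12.2% lower. With no limit on Otof, Pou4f3 stood at 0.91 and Espn at 0.41 in that comparison in the cocktail library, turned from lower to higher. Against other Epcam cells 0 of 25 were higher and Pou4f3 and Rbm24 lower, beside 3.49% and 8.91% of all genes tested. The medians of the 25 were -0.03 and 0.10. Pou4f3, the factor that maintains hair cells, had 1 UMI in 97 gated cocktail cells and 0 in 90 vehicle cells, and stood at 8.28 and 14.7 CPM in other Epcam cells. Lhx3, a homeobox gene of hair cells, stood at 42.4 and 40.4 CPM, and Insm1, a zinc finger factor of neuroendocrine and outer hair cells, at 40.2 and 39.2 CPM. A single vehicle cell held 75.0% of the gated Neurod1 UMIs. Of 26 bundle and transduction genes 0 were higher and 10 lower than in other Epcam cells, beside the same shares of all genes. Tmc1, the transduction channel gene, had 2 and 3 UMIs in gated cells, and Espn, an actin bundler of stereocilia, stood at 15.6 and 23.9 CPM against 56.4 and 157 CPM. Cib2 stood at 85.3 and 89.8 CPM against 109 and 120 CPM.  Pvalb, a calcium buffer of hair cells, was in 88.7% and 77.8% of gated cells at 737 and 638 CPM, against 428 and 383 CPM in other Epcam cells, at log2 ratios of 0.79 (0.70 to 0.87) and 0.74 (0.64 to 0.83). Deep cells without Epcam held Pvalb in 16.0% and 18.2%.

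Of the peptide genes, receptors were higher in gated than in other Epcam cells. Galr2, a galanin receptor, stood at 16.1 and 20.5 CPM (36 UMIs in each library) against 2.52 and 3.97 CPM, and Sstr2, a somatostatin receptor, at 59.8 and 43.8 CPM against 22.3 and 20.3 CPM. These were the 2 genes of 9 listed receptors with enough UMIs to test. Against cells of the same gate with 3 or more Otof UMIs, their median log2 ratios were -0.57 and -0.66, with 0 past 2-fold in both libraries. In that comparison 1.92% of all genes tested were higher and 3% lower. Over all genes tested against other Epcam cells, the comparison used for the lists that follow, 3.49% were higher and 8.91% lower. Of 22 genes of neuroendocrine cells and secretory granules 0 were higher and 1, Rab27b, was lower. Chga, the granule protein chromogranin A, had 15 and 16 UMIs, and Scg5, a chaperone of prohormone convertase, stood at 30.4 and 35.2 CPM against 27.6 and 49.3 CPM. Npy, a further neuropeptide, was higher at 251 and 955 CPM against 34.1 and 105 CPM, but in 14.4% and 25.6% of gated cells. The gated cocktail cells with most Npy held 244 and 175 of its UMIs, and the next held 43. Of 21 cAMP responsive genes Npy and Nr4a3 were higher and Creb3l1, Fos, Fosb, Junb and Nr4a1 lower. Fos, an immediate early gene, stood at 228 and 182 CPM against 736 and 798 CPM. Nr4a3, an inducible orphan nuclear receptor, stood at 51.35 and 58.0 CPM against 19.4 and 12.8 CPM. Of 18 steroid hormone genes Zbtb16 was higher, and Scnn1b and Sgk1 were lower.

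Correlation across gated cells gave few partners for Hes6. By Pearson correlation of log2(UMIs per 10000 + 1), taken as the smaller of the 2 libraries over 6383 genes, the genes most like Hes6 were Alad, Fis1, Cox17, Selenow, Atp5k, Use1, Trnp1 and Smdt1, at 0.35 for Alad down to 0.25 for Smdt1. With Atoh1 the correlation of Hes6 was -0.10 and -0.15, over 97 and 90 cells. The same measure for Krt23, computed after its values were seen, gave Oat at 0.45, then Tmem141, Cdo1, Sox17, Bmyc, Pccb, Arrdc2 and Hhatl, down to 0.28. Gated cells of a library share their capture but ranged in depth from 5133 to 67035 UMIs (cocktail) and 5541 to 51512 (vehicle). These correlations are descriptions of sparse counts.

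The Gal and Cck gate also took cells with 3 or more Otof UMIs, 21 and 23 in number. They were deeper, at medians of 32689 and 26947 UMIs. The fold comparison between them was added after the data were seen. Of 9521 genes tested, 183 (1.92%) were past 2-fold higher in gated cells in both libraries and 286 (3%) lower, with medians of -0.08 and -0.02. The higher genes spanned a median of 14.2 kb and the lower genes 64.3 kb, against 27.6 kb over all genes tested. Cells with little Malat1, a nuclear RNA described below, were 41 of 97 and 29 of 90 gated cells but 0 of 21 and 2 of 23 Otof cells. Without them 199 genes were higher and 211 lower, of which 151 and 187 were among the 183 and 286. Krt23 was higher in gated cells by 1.46 (0.98 to 1.97) and 1.49 (1.06 to 1.95), whereas Hes6 differed by 0.66 and 0.53 and Epcam by 0.17 and 0.07. Sox17, Crisp1, Rarres1, Ramp3, Slc17a7, Cib3 and Krt7, named above, were not past 2-fold in both libraries. Among 10 antigen presentation genes 5 were past 2-fold higher in gated cells, H2-K1, H2-D1, H2-Q4, H2-T23 and Psmb8. H2-K1, a class I heavy chain, stood at 609.5 and 363 CPM against 293 and 137 CPM. Ifitm3, an interferon-induced membrane gene, stood at 387 and 188 CPM against 63.3 and 24.5 CPM. The naming rule also gave Lcn2, Gsn, S100a10, Cdo1, Pycard, Cryab and Ldha on the higher side. The gated cocktail cells with most Lcn2 held 2960 and 218 of its UMIs, and the next held 16.

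Lower in gated cells were Pcdh15, a tip link cadherin, at 35.7 and 16.5 CPM against 330.5 and 186.5 CPM, and Jag1, a Notch ligand, at 11.6 and 7.96 CPM against 68.0 and 67.1 CPM. Shares over all genes tested in this comparison were 1.92% higher and 3% lower. Of 28 tested genes of the supporting cell list, Jag1, Sox2, Fgfr3, Lgr5 and Hey1 were past 2-fold lower. Epyc, Ptgds and Sparcl1 of that list were past 2-fold higher in gated cells. One cell held 60.0% of the gated Pcdh15 UMIs in the cocktail library and 1 cell 69.0% in the vehicle library. Fstl4, a follistatin-like gene, was abundant in both, at 780.5 and 688 CPM against 2520 and 2398 CPM. Rnf180, Pacsin1, Rassf6, Sorbs2 and Rtn1 were the other named genes. Among 13 neuroendocrine genes Cadps, Chga, Ptprn2, Scg5 and Syt7 were past 2-fold lower in gated cells and Neurod1 was higher. Cells that passed the Gal and Cck cuts at under 5000 UMIs numbered 114 and 46, at medians of 1139 and 1688 UMIs. There Krt23 stood at 177 (123 to 246) and 276 CPM (182 to 402) and Hes6 at 631 (526 to 752) and 450 CPM (327 to 604), near the gated levels.

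The gated cells differed widely in Malat1, a long noncoding RNA kept in the nucleus. This was noticed after the values were seen, and the cut of 5 Malat1 UMIs per 10000 was set then. Below it lay 41 of the 97 cells (42.3%, 32.3 to 52.7) and 29 of the 90 (32.2%, 22.8 to 42.9). Of these 31 and 23 held 0 Malat1 UMIs, while 45 and 49 gated cells held at least 100 per 10000. The share below the cut was 15.3% and 14.4% in other Epcam cells, 0 of 21 and 2 of 23 in the Otof cells, and 78 of 114 and 41 of 46 in the shallow cells. Gated cells below the cut were shallower, at medians of 10329 and 9721 UMIs against 27011.5 and 23289, and had 0.43% and 0.47% mitochondrial UMIs against 2.64% and 3.45%. Ribosomal protein genes gave 21.1% and 22.0% of their UMIs against 13.4% and 14.2%. In cells low in Malat1, Gal stood at 31389 and 25920 CPM against 15436 and 9449 CPM, and Pvalb at 1731 and 1092 CPM against 431 and 540 CPM. Hsd11b2 was lower there, at 47.3 and 41.4 CPM against 107 and 120 CPM. Krt23 differed little, at 197 and 213 CPM against 156 and 227 CPM. Without the cells low in Malat1 in any group, Krt23 and Ramp3 stayed past 2-fold above other Epcam cells in both libraries, and 403 of the 464 higher genes did. Pvalb then stood at -0.03 and 0.49 against other Epcam cells. The share of gated cells then differed between the libraries by 2.03 points, with an interval that held 0.

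**Figure D3:**
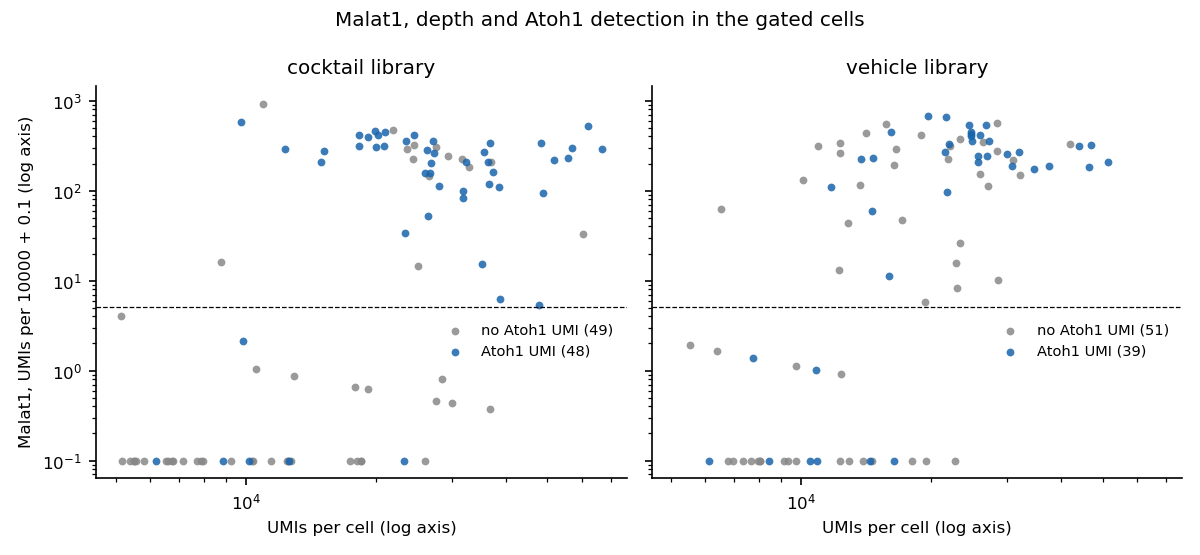
Malat1 in UMIs per 10000 with 0.1 added (y axis, log) against UMIs per cell (x axis, log) for each gated cell, coloured by detection of Atoh1; the dashed line marks 5 per 10000. In both libraries the cells fall into a group above 5, mostly above 100, and a group at or near 0, and most of the lower group has no Atoh1 UMI.

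Atoh1 was found in 48 of the 97 cells (49.5%, 39.2 to 59.8) and 39 of the 90 (43.3%, 32.9 to 54.2). Transcripts of the virus and of the mouse gene were not distinguished. The level was 80.8 and 67.1 CPM, against 54.0 and 38.3 CPM in other Epcam cells and 85.7 and 45.3 CPM in deep cells without Epcam, 27.7% and 24.8% of which had an Atoh1 UMI. Detection went with depth and with Malat1: Atoh1 was in 14.6% and 27.6% of gated cells low in Malat1 and in 75.0% and 50.8% of the rest. The libraries differed by 6.15 points over all gated cells (-8.03 to 20.0), by 24.2 points (6.63 to 39.6) over those above the Malat1 cut and by -13.0 points (-32.7 to 5.94) over those below it.

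Gated cells with an Atoh1 UMI held more Dmd and Rock2 than those without. Above the Malat1 cut Dmd fell short of 2-fold in the cocktail library. Igfbp5 and Dlk1, higher, and Fabp5 and S100b, lower, turned their direction in at least 1 library under another setting. Of 8534 genes tested, 213 (2.5%) were past 2-fold higher in both libraries and 23 (0.27%) lower. The median over all genes was itself 0.31 and 0.15, and the ratios and counts given here were not corrected for it. Dmd, the dystrophin gene, stood at 250 and 279 CPM with Atoh1 against 91.5 and 46.2 CPM without. Rock2, a kinase that acts on the actin cytoskeleton, stood at 202 and 208 CPM against 62.95 and 78.1 CPM, at log2 ratios of 1.68 and 1.41. Igfbp5, a binding protein of insulin-like growth factors, was higher by 1.18 (0.93 to 1.44) and 1.34 (1.15 to 1.53). Tsc22d2, Fhit, Dlk1 and Park2 were also among the named higher genes. Fabp5, a fatty acid carrier, stood at 806 and 713 CPM with Atoh1 against 2584 and 1588 CPM without. S100b, Gsn and Mymx were past 2-fold lower in both libraries, whereas Ftl1, Gpx4, Fau and Cst6 were lower by less, at -0.41 to -0.67. Hes6, the Atoh1 target, stood at 0.14 (-0.02 to 0.31) and -0.34 (-0.55 to -0.13). Of 17 hair cell regulators tested 0 were higher and Neurod1 was lower, and of 13 bundle genes Pcdh15 was higher, at 53.7 and 27.3 CPM with Atoh1 and 5 and 4 UMIs without. In that group 1 cell held 64.0% of the UMIs in the cocktail and 1 cell 80.0% in the vehicle library. Pvalb and Krt7 differed in sign between the libraries, Pvalb at -1.24 and 0.21 and Krt7 at -2.03 and 0.28.

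The split moved with depth and nuclear RNA. Cells with an Atoh1 UMI had medians of 26571.5 and 24471 UMIs against 12772 and 14146. Of the cells without Atoh1, 71.4% and 41.2% were low in Malat1, against 12.5% and 20.5% of those with it. The 213 higher genes spanned a median of 93.6 kb in GENCODE M21 and the 23 lower genes 7.31 kb, against 27.6 kb for all genes tested. Above the Malat1 cut 65 genes were past 2-fold higher, 47 of them among the 213. There Dmd stood at 0.44 and 2.39 and Fabp5 at 1.27 and -1.43, so that Fabp5 turned its direction in the cocktail library, whereas Rock2 stayed at 1.03 and 1.20. Thinned to 5000 UMIs per cell, with cells split by the Atoh1 UMIs left, 54 genes were higher, 11 of them among the 213, and Igfbp5 stood at -0.28 and Dlk1 at -0.77 in the cocktail library. With at least 3 Atoh1 UMIs against none, Dlk1 stood at -1.18 and -0.79. The part of depth and of nuclear RNA in the remaining differences was not tested.

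**Figure D4:**
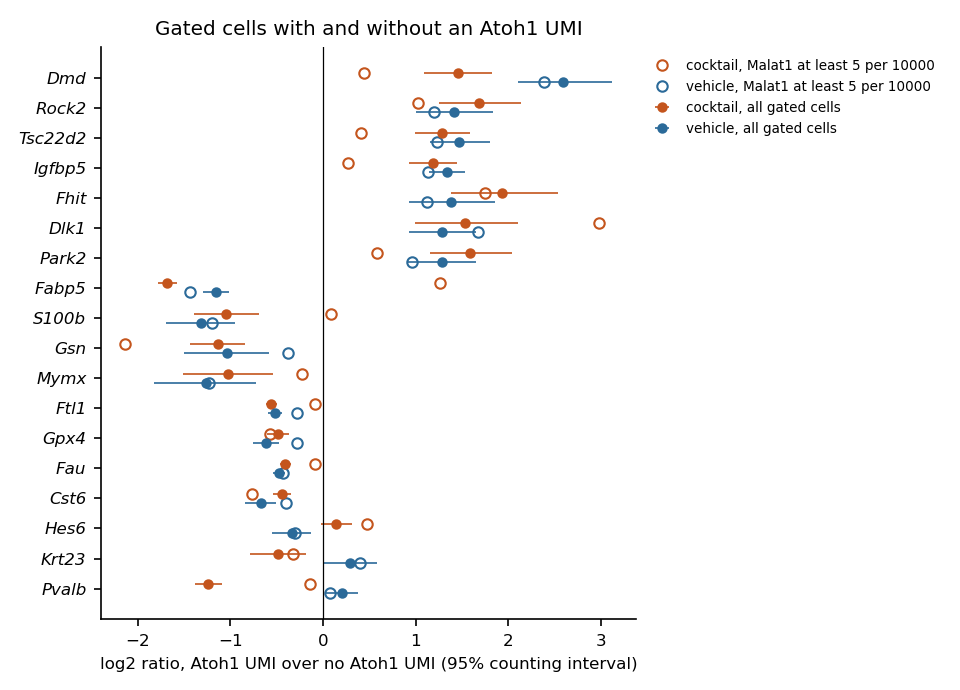
Log2 ratio of summed levels in gated cells with an Atoh1 UMI over those without (x axis) for 15 named genes and Hes6, Krt23 and Pvalb; filled points with 95% counting intervals are all gated cells, open points the cells with Malat1 at least 5 per 10000. Rock2, Fhit and Dlk1 have both points above 1 in both libraries, although Dlk1 turned below 0 with at least 3 Atoh1 UMIs, a setting not drawn, while Fabp5 and S100b cross 0 in the cocktail library.

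Between the libraries the gated cells differed for a minority of genes. Of 11055 genes tested, 337 (3.05%) were past 2-fold higher in the cocktail library and 491 (4.44%) lower, around a median of -0.02. The marking genes were short of 2-fold. Hes6 stood at 0.39 (0.27 to 0.53), Krt23 at -0.44 (-0.65 to -0.23) and Krt7 at -0.98 (-1.16 to -0.79) on the log2 scale. Hsd11b2 stood at -0.19 (-0.49 to 0.10) and Pvalb at 0.21 (0.10 to 0.32). The quartiles over all genes tested were -0.29 and 0.24, and Hes6, Krt23 and Krt7 lay outside them. Mia, a small secreted protein gene of cartilage, stood at 259 and 48.3 CPM, at 2.42 (2.09 to 2.77). Uchl1, a deubiquitinase of neurons, had 292 and 44 UMIs, at 2.38 (1.92 to 2.87), and the 14 neuron markers, which include it, summed to 317 and 177 CPM. Bc1, a noncoding RNA of neurons, was in 52.6% and 35.6% of gated cells, at 188 and 58.5 CPM. Prss36, Grasp, Scx and Spink4 were higher by 1.21 to 1.61. Lcn2, a siderophore-binding protein gene, ranked top at 3.74, but 1 cocktail cell held 2960 of its 3271 UMIs, and with the top cell of both libraries left out it stood at 0.92. Alas1 and Lnx1 likewise stood at 0.48 and 0.64 without their highest cells, and Lnx1 at -0.11 when thinned to 5000 UMIs.

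Npy led the lower side, at 251 and 955 CPM and -1.93 (-2.07 to -1.79), with an Npy UMI in 14.4% and 25.6% of gated cells. S100a6, a calcium-binding protein gene, stood at 94.2 and 339 CPM, and Ldha, the lactate dehydrogenase A gene, at 77.7 and 230 CPM, in 52.6% and 78.9% of cells. Rarb, a retinoic acid receptor, stood at 26.3 and 99.5 CPM, at -1.92 (-2.37 to -1.48), but at 0.37 among cells with Gal of at least 50 and Cck of at least 20 per 10000. Cntnap2, Dync1i1, Ddit4l, Mgmt, Wdcp and Heatr5a completed the named genes, and Mgmt turned to 0.21 when cells were thinned to 5000 UMIs. In Heatr5a 1 vehicle cell held 49 of 94 UMIs, and without the highest cells its ratio was -1.58.

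By list, 10 of 20 tested cell cycle genes were past 2-fold lower in the cocktail library and 0 higher, with a median of -0.86, where 4.44% of all genes were lower and 3.05% higher. These rested on few cells: Top2a had 8 UMIs in 1.03% of cocktail cells and 58 UMIs in 6.67% of vehicle cells, and Mki67 had 2 and 20 UMIs. Cdkn1a, the kinase inhibitor p21, which is also a p53 target, was widespread at 253 and 533 CPM in 74.2% and 78.9% of cells. With Ckap2, Eda2r and Gdf15 it made 4 of 19 p53 targets lower, and 0 were higher. Of 16 interferon and chemokine genes Ifit2, Ifit3, Ifitm3 and Irf7 were higher and Cxcl10 lower, with a median of 0.60. Irf7, an interferon regulator, stood at 75.0 and 31.8 CPM in 52.6% and 33.3% of cells. Of the 45 vehicle UMIs of Cxcl10, 43 were in 1 cell. Cholesterol synthesis genes had a median of 0.58 with Idi1 past 2-fold, at 44.2 and 19.3 CPM. Krt18, Cldn4, Elf3 and Prom1 of 23 epithelial genes were lower in the cocktail library and 0 higher. Of 19 hair cell regulators 0 were past 2-fold in either direction. Cells low in Malat1 were 42.3% of the cocktail and 32.2% of the vehicle cells, and without them 398 genes were higher and 457 lower, of which 274 and 377 were among the 337 and 491.

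**Figure D5:**
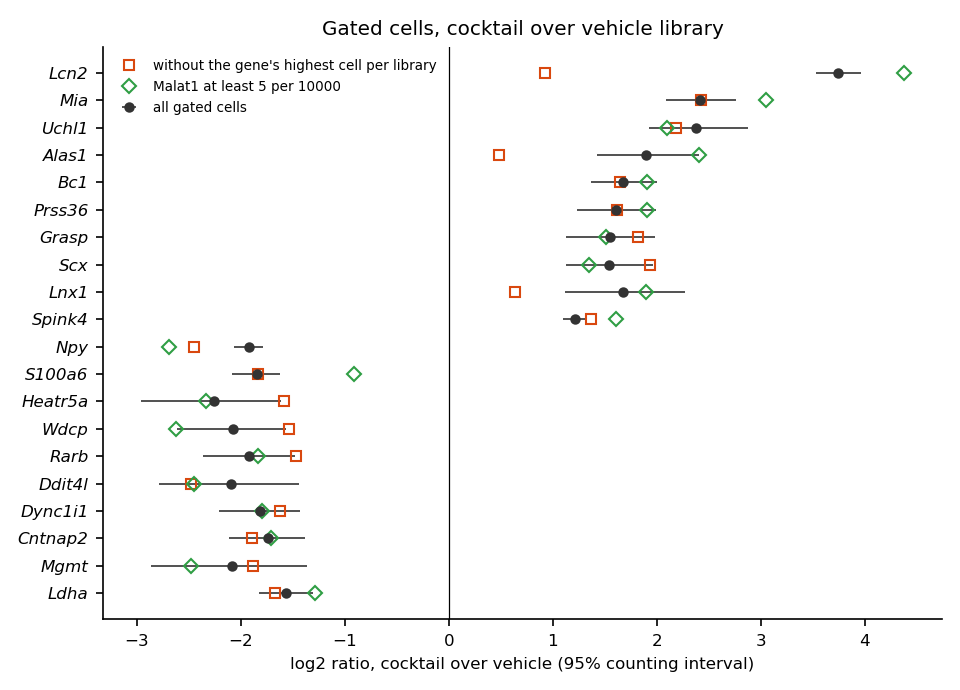
Log2 ratio of summed levels in gated cells, cocktail over vehicle (x axis), for the 20 named genes; black points with 95% counting intervals are all gated cells, squares leave out each gene's highest cell in each library, and diamonds keep cells with Malat1 at least 5 per 10000. Squares fall to 0.92, 0.48 and 0.64 for Lcn2, Alas1 and Lnx1, and the 10 lower genes stay below 0 in the 3 settings drawn; Rarb and Mgmt turned above 0 in settings not drawn.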

How the data were processed

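For 31053 genes the authors deposited raw UMI counts in each barcode (10x 3′ v3.1 kit), and Cell Ranger 5.0.0 is the maker per the file headers. STAR, Seurat 3.2.2, mm10 and GRCm38 appear in the submitters' processing notes. The annotation release is not given in the sources used here. Gene positions came from GENCODE M21.

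Kept barcodes had at least 500 UMIs, 300 genes and no more than 20% of mitochondrial UMIs; 74 and 104 were dropped, and 2 and 3 of them passed the Gal and Cck cuts. The gated cells and gene lists were chosen with earlier results of these data known. UMIs were summed over cells and scaled to CPM. Log2 ratios have exact conditional 95% counting intervals, levels Poisson, shares Clopper-Pearson and differences of shares Newcombe intervals. Genes needed 20 UMIs in the compared cells of each library. Against 0 UMIs a floor of 3 counts was used. Free RNA was not subtracted.

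Named genes were ranked by the interval bound nearest 0, the smaller of both libraries, among genes with at least 50 UMIs, detected in at least 25% of the higher group. Ribosomal, mitochondrial, sex-linked, haemoglobin and unnamed genes were left out. The rule took 15 higher and 8 lower genes against other deep cells, 12 and 8 against other Epcam cells, 8 and 8 for the Atoh1 split, 10 and 10 between libraries and up to 3 per list and direction; 2 of the ranked genes are not reported here. The 8 and 8 against the Otof cells, the Malat1 cut, the gene spans, the group without Epcam and the Krt23 correlations were added after values were seen. The ratio step was tested on simulated counts. Doublets were called with Scrublet (scanpy 1.11.5). Python 3.11.15, numpy 2.4.6, scipy 1.17.1 and pandas 2.3.3 were used.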

Additional observations from a re-analysis of the deposited data

Results flagged for a closer look

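For 6 genes the ratio stood on opposite sides of 0 in the 2 libraries, each past 2-fold, with an interval that left out 0. A gene was kept here with at least 50 UMIs in the compared cells of each library and the same opposite directions without its highest cell; these limits were set after a wider first pass was seen. The difference between the libraries was not tested.

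In gated cells over all other deep cells, Cacng2, a subunit that handles AMPA receptors, stood at a log2 ratio of 1.60 (0.63 to 2.51) in the cocktail library and -2.09 (-5.16 to -0.20) in the vehicle library. The other 5 genes came from gated cells with an Atoh1 UMI over those without. Cdh4, the R-cadherin gene, stood at 1.81 (1.32 to 2.33) in the cocktail and -1.57 (-1.94 to -1.21) in the vehicle library. Epyc, a proteoglycan gene of supporting cells, stood at 1.16 and -1.44. Id2, an inhibitor of basic helix-loop-helix factors, stood at 1.30 and -1.48. Rarb, a retinoic acid receptor, stood at 1.24 and -2.57. Rsad2, an interferon-induced enzyme, stood at 2.13 and -2.27. Cells without Atoh1 were low in Malat1 in 71.4% (cocktail) and 41.2% (vehicle), and the part of this in the 5 ratios was not tested.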

How the results depend on the processing

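No paired analysis was possible because each condition is 1 library. Leaving out a replicate was not possible either. Of 112 alternative counts and differences of share, 94 lay within 1.5 times the reported count or within the interval of the difference. With no limit on Otof, 762 genes were past 2-fold above other Epcam cells and 871 above all other deep cells, and without comparison cells holding at least 10 Gal UMIs per 10000 the last count was 942. The Atoh1 split was the least stable: higher genes numbered 136 at a depth of at least 10000 UMIs, 411 as a mean over cells, 54 when thinned to 5000 UMIs, 89 with at least 50 UMIs and 65 above the Malat1 cut. Lower genes numbered 14 at that depth, 11 without each gene's highest cell, 9 with at least 50 UMIs and 39 for Atoh1 of at least 3 UMIs. Between the libraries 196 genes were higher and 241 lower when thinned, and 123 and 198 with at least 50 UMIs. Against the Otof cells 105 genes were higher and 164 lower when thinned, an alternative chosen after seeing the data. Fewer genes were tested with a higher UMI minimum. Thinning left fewer genes to test, 3532 of 8534 in the Atoh1 split, and there it also moved cells between the groups, leaving 22 and 22 with an Atoh1 UMI. The cause of these and the other changes was not tested.

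Of the values of single genes 2218 were within the counting interval, 714 moved beyond it and 18 changed direction. In the Atoh1 split the direction changed for Dlk1 (-0.77 thinned in the cocktail library, -1.18 and -0.79 with at least 3 Atoh1 UMIs), Igfbp5 (-0.28 thinned, cocktail), Lhx3 (-0.69 thinned, vehicle), and above the Malat1 cut for Fabp5 (1.27) and S100b (0.089) in the cocktail library. Between the libraries Lnx1 stood at -0.11 and Mgmt at 0.21 when thinned, and Rarb at 0.37 with Gal of at least 50 and Cck of at least 20 per 10000. With those cuts Hsd11b2 stood at -0.028 against other Epcam cells in the vehicle library. With no limit on Otof, which then holds the Otof cells, Otof stood at 1.51 and 0.65 against other Epcam cells and 1.50 against all other deep cells in the vehicle library, Espn at 0.41 against all other deep cells and Pou4f3 at 0.0074 and 0.91, against other Epcam and all other deep cells, in the cocktail library. Thinned, Pou4f3 stood at 0.49 there, on 1 UMI or fewer.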
